A study of Mus musculus with 4 samples.

Results

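The 34 genes described here are markers of the cumulus and granulosa cells of the mouse ovary. They were taken by gene symbol from a fixed list, and all 34 were found among the 55335 genes of the deposited tables. Cumulus cells are the granulosa cells that surround the oocyte and are joined to it by gap junctions through the zona pellucida. At ovulation the luteinizing hormone surge acts through EGF-like ligands on these cells, which then lay down a hyaluronan-rich matrix (cumulus expansion) and shift their steroid synthesis. Granulosa cells are also the ovarian source of inhibins and activins, which control follicle-stimulating hormone release. An oocyte is normally stripped of these cells before its RNA is read.

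RNA was measured in 2 mutant and 2 control libraries of mouse oocytes of the C57BL/6 strain, amplified by Smart-Seq2, which copies full-length cDNA from very little RNA. The mutant mice carried a point mutation at an alternative splice site of *Ezh2* exon 3, and the labels do not say whether these oocytes came from the Ezh2Long or the Ezh2Short line. The sample descriptions add MII and mark the controls as WT. The sources used here do not give the number of oocytes in a library, the age of the mice or whether the libraries came from separate animals. The p-values therefore cover the spread between these 4 libraries, which may be technical.

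The libraries held between 25090032 and 26617816 counts. Oocyte identity matched the label: 12 oocyte genes such as *Gdf9* and *Oosp1* summed to 13556 and 14423 CPM in mutants 1 and 2, against 15116 and 13831 CPM in controls 1 and 2, and none of the 12 was at 0 in any library. CPM stands for counts per 1000000 of the scaled library size. In bulk RNA, fewer cells of a type and less RNA per cell cannot be told apart.

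Mutant 1 stood apart from the other libraries in these markers. Of the 34 members, 28 had their highest CPM in mutant 1, 2 in mutant 2, 1 in control 1 and 2 in control 2, and *Ereg* had no count anywhere. Among the 18 members abundant enough to test, 16 were highest in mutant 1, where 30.0% of all 15493 tested genes were. At 1 CPM or more stood 24 members in mutant 1 and 12 in mutant 2, against 16 in control 1 and 5 in control 2. Members with 0 counts numbered 3 in mutant 1 and 12 in mutant 2, against 12 in control 1 and 18 in control 2. Of the 24 members at 1 CPM or more in mutant 1, 13 were under 10% of that level in each other library, against 1.48% of the 12960 genes at that level. At 10 CPM or more in mutant 1 the same held for 7 of 16 members and 0.523% of 6691 genes. The list was drawn up with earlier results of these data known, so these shares describe mutant 1 and carry no test.

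**Figure D1:**
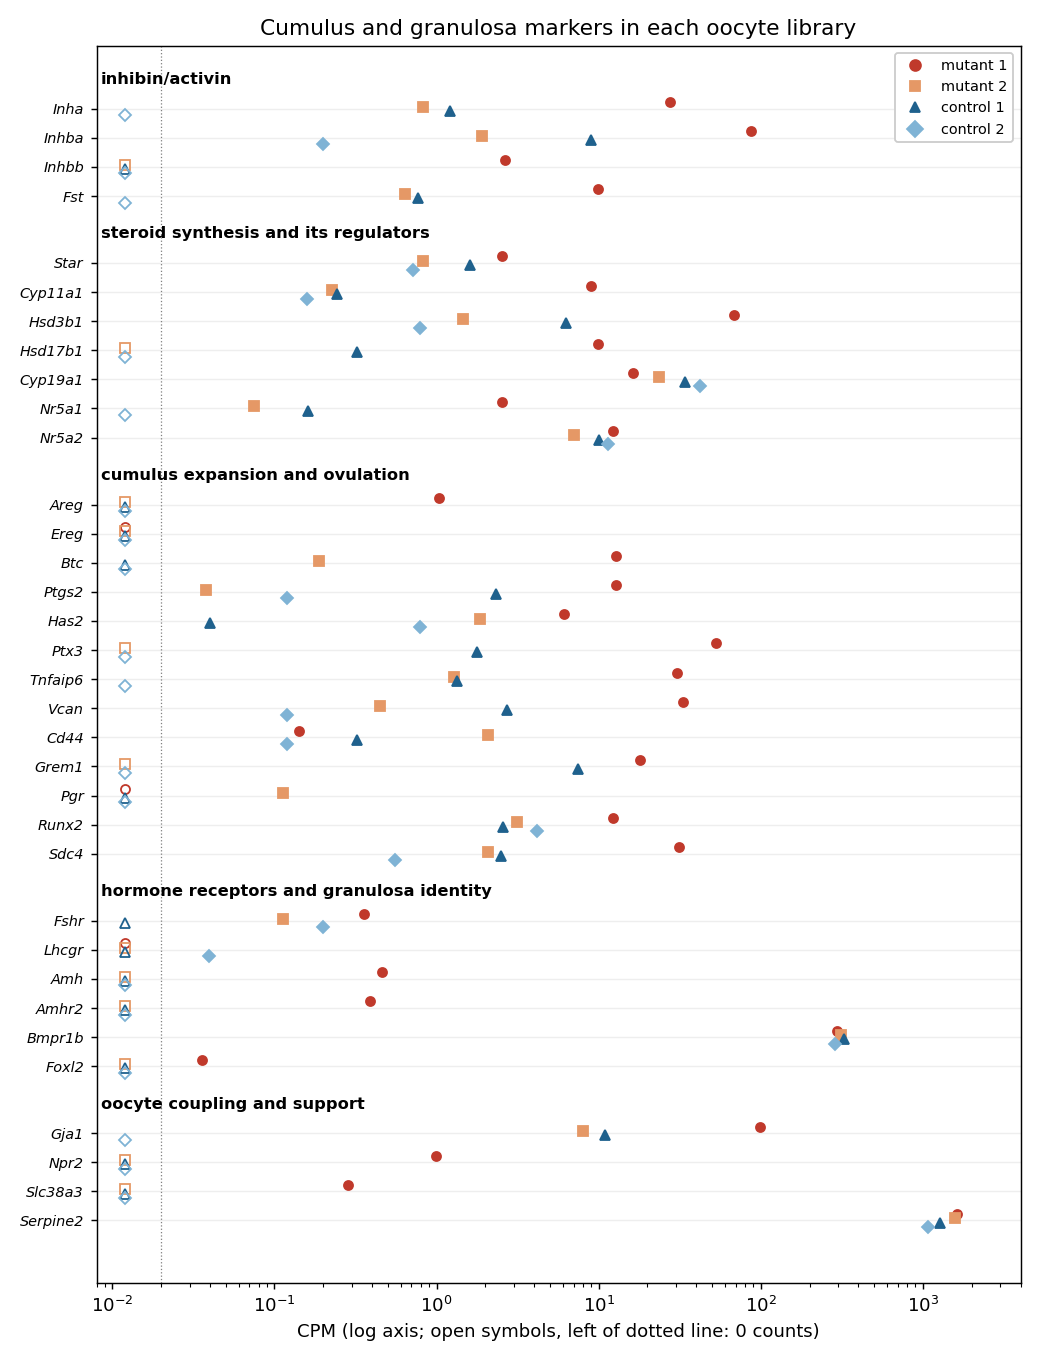
CPM of each of the 34 members in the 4 libraries on a log axis, grouped by role, with open symbols for 0 counts. Mutant 1 is the rightmost symbol for 28 members, while *Bmpr1b*, *Serpine2* and *Nr5a2* lie close together in all 4 libraries. For *Cyp19a1* both mutants lie left of both controls.

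The genomic windows around the starts of *Gja1*, *Areg* and *Btc*, all highest in mutant 1, are shown because they stand for the coupling to the oocyte (*Gja1*) and for the EGF-like ligands (*Areg*, *Btc*). The windows are RefSeq promoters of GRCm38.p6, 250 bases before and 50 after the start, on the gene's own strand. Capitals mark matches to TGACG, a short form of the cAMP response element, and to the TATA box motif TATAAA, on either strand.
Gja1 (chr10:56377050-56377349, plus strand): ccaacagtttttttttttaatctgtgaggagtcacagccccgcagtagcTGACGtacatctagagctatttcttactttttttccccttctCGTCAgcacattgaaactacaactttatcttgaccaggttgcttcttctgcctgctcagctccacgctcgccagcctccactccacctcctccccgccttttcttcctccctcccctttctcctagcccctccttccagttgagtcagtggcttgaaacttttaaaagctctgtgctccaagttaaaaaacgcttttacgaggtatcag
Areg (chr5:91139349-91139648, plus strand): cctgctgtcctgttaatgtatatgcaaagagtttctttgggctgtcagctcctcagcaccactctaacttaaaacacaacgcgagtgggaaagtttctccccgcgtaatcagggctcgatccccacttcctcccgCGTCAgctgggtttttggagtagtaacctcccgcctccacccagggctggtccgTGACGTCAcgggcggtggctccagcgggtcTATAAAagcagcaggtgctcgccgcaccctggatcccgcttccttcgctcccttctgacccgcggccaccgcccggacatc
Btc (chr5:91402945-91403244, minus strand): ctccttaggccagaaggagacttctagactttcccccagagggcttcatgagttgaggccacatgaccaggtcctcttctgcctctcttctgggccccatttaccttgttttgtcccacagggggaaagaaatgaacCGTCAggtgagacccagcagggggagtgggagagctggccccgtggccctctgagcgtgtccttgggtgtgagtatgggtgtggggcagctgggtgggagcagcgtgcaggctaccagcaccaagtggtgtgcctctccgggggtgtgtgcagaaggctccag

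The *Areg* window holds overlapping TGACG matches on opposite strands, which together read TGACGTCA, the full cAMP response element, followed by a TATA box. Over the 32 windows of the 26 members with an entry, TGACG was present in 5 (15.6%), against 20.8% of all 32851 promoter windows. TATAAA was present in 7 (21.9%), against 13.6% of all windows. CCAAT was present in 10 (31.2%), against 37.4%, and CAAGGTCA, a site of the NR5A receptors, in 1 (*Amhr2*; 3.12%), against 1.56%. These matches describe letters in a window and show no binding.

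Of the 4 genes of oocyte coupling and support, 3 separated mutant 1 from the rest, *Slc38a3* on only 8 counts. *Gja1* (chromosome 10, 56377330 to 56402513, mm10), which encodes the gap junction protein connexin 43 of cumulus cells, had 2796 and 212 counts in mutants 1 and 2, against 271 and 0 counts in controls 1 and 2. That was 99.3 and 7.96 CPM in the mutants and 10.9 and 0 CPM in the controls. Mutant 1 was the high library, while mutant 2 lay between the controls, so the groups overlapped. The level in mutant 1 was 12.5 times that in mutant 2 (95% counting interval 10.8 to 14.4) and 9.10 times that in control 1 (8.03 to 10.3). The means were 53.6 ± 64.6 CPM in mutants and 5.46 ± 7.72 CPM in controls (SD, n = 2 each), and the difference did not pass (log2 fold change 3.30, SE 1.71; edgeR quasi-likelihood test, adjusted p = 0.305).

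*Npr2*, the cumulus receptor for C-type natriuretic peptide that holds the oocyte in meiotic arrest, had 28 counts in mutant 1 and 0 in the other 3 libraries. *Slc38a3*, an amino acid transporter by which cumulus cells supply the oocyte, had 8 counts in mutant 1 and 0 in the other 3. A count of 0 allows up to 0.113 CPM in mutant 2, and 0.121 and 0.119 CPM in controls 1 and 2, so lower levels could not be seen there at this depth. *Npr2* stood at 0.994 CPM in mutant 1 and *Slc38a3* at 0.284 CPM, both above these limits. The counting intervals and these limits cover counting error only, since amplified reads are not independent molecules.

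*Serpine2*, which encodes the protease inhibitor protease nexin 1, did not follow *Gja1*. It was at 1615 and 1578 CPM in mutants 1 and 2 and at 1270.05 and 1080.4 CPM in controls 1 and 2. Both mutants lay above both controls, and mutants 1 and 2 nearly coincided. The means were 1596 ± 26.7 CPM in mutants and 1175 ± 134 CPM in controls (SD, n = 2 each), a difference that did not pass (log2 fold change 0.44, SE 0.160; edgeR adjusted p = 0.168). It was the most abundant member in every library and held most of its group's reads.

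All 4 inhibin and activin genes were highest in mutant 1. *Inhba* (chromosome 13, 16011851 to 16031621, mm10), the βA subunit shared by activin A and inhibin A, had 2441 and 51 counts in mutants 1 and 2, against 223 and 5 counts in controls 1 and 2. *Inha*, the α subunit found only in inhibins, had 779 and 22 counts in the mutants, against 30 and 0 counts in the controls. *Inhbb*, the βB subunit, had 74 counts in mutant 1 and 0 in the other 3 libraries. *Fst*, follistatin, which binds and neutralizes activin, stood at 9.91 and 0.639 CPM in the mutants, against 0.765 and 0 CPM in the controls.

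In these genes mutant 1 was high, control 1 and mutant 2 were low or at 0, and control 2 was at or near 0, so the groups overlapped for each of them. *Inhba* was 9.65 times as high in mutant 1 as in control 1 (95% counting interval 8.41 to 11.1), and *Inha* 22.9 times (15.9 to 34.2), intervals that do not meet. The ratio thus differed between the 2 genes by more than counting error, which leaves out the error of amplification. None of the 3 tested genes passed, with log2 fold changes of 3.27 for *Inhba* (SE 1.79; edgeR adjusted p = 0.330), 4.55 for *Inha* (SE 1.82; edgeR adjusted p = 0.201) and 3.77 for *Fst* (SE 1.63; edgeR adjusted p = 0.229). Per length the order of the subunits changed. In the deposited TPM values of mutant 1 *Inha* was at 37.5, above *Inhba* at 22.9 and *Inhbb* at 1.01, whereas in CPM *Inhba* exceeded *Inha*, and the transcript lengths in the tables were 1475 bases for *Inha* and 6390 bases for *Inhba*.

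Some steroid genes were far higher in mutant 1 than in any other library, while others were read at closer levels in every library. *Hsd3b1*, which encodes 3β-hydroxysteroid dehydrogenase, the enzyme that makes progesterone, was at 68.8 and 1.46 CPM in mutants 1 and 2, against 6.32 and 0.794 CPM in controls 1 and 2. *Cyp11a1*, the side-chain cleavage enzyme that starts steroid synthesis, had 251 and 6 counts in the mutants, against 6 and 4 counts in the controls. *Hsd17b1*, which converts estrone to estradiol, had 277 and 0 counts in the mutants, against 8 and 0 counts in the controls. For all 3, mutant 1 was the high library, and each other library was under 10% of its level.

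*Hsd3b1* has close paralogs, among which *Hsd3b2*, *Hsd3b3*, *Hsd3b4* and *Hsd3b5* were at 0 in all 4 libraries and *Hsd3b6* at 4 counts or fewer in each. *Hsd3b7* was read at 298 and 264 counts in mutants 1 and 2, against 343 and 334 counts in controls 1 and 2. In control 2 the 20 matrix counts of *Hsd3b1* stood against 0 RSEM expected counts, and in mutant 2 its 39 against 18. The low level of *Hsd3b1* in these libraries is therefore uncertain. *Nr5a1*, the nuclear receptor SF-1 that switches on steroid enzymes, had 71 and 2 counts in mutants 1 and 2, against 4 and 0 counts in controls 1 and 2. *Hsd3b1* did not pass between the groups (log2 fold change 3.30, SE 1.59; edgeR adjusted p = 0.273).

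*Cyp19a1* ran the other way. It encodes aromatase, the granulosa enzyme that makes estrogens, and had 461 and 627 counts in mutants 1 and 2, against 850 and 1070 counts in controls 1 and 2, or 16.4 and 23.6 CPM against 34.2 and 42.5 CPM. Both mutants lay below both controls, and its lowest library was mutant 1, the library with the most *Gja1*. Its highest was control 2, where *Gja1* had no count. The means were 20.0 ± 5.08 CPM in mutants and 38.3 ± 5.82 CPM in controls (SD, n = 2 each). The difference did not pass (log2 fold change -0.94, SE 0.250; edgeR adjusted p = 0.0864), though it passed with the DESeq2 Wald test (adjusted p = 0.0134) and with no filter on low counts in edgeR (adjusted p = 0.0428).

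*Nr5a2*, the receptor LRH-1 of granulosa cells, was likewise read in every library, at 12.3 and 7.06 CPM in mutants 1 and 2 and 9.99 and 11.4 CPM in controls 1 and 2. The groups overlapped (log2 fold change -0.14, SE 0.347; edgeR adjusted p = 0.855). *Star*, which carries cholesterol into mitochondria, stood at 2.52 and 0.826 CPM in mutants 1 and 2, against 1.61 and 0.714 CPM in controls 1 and 2. Replicate 1 of each genotype was the higher one for *Star*. The same held for many other members, such as *Gja1*, *Inhba* and *Hsd3b1*, though not for *Has2* or *Runx2*. The mean transcript length of *Star* in the RSEM tables was 1816 bases in mutant 1 and 4046 bases in mutant 2, against 1928 bases in control 1 and 4046 bases in control 2. The annotation has 2 *Star* transcripts, of 4046 and 633 bases, so in mutant 2 and control 2 all *Star* reads were assigned to the longer one, while in mutant 1 and control 1 part was assigned to the shorter. The assigned reads numbered 69 and 22 in mutants 1 and 2 and 40 and 17 in controls 1 and 2.

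The cumulus expansion and ovulation group held 13 members, of which 10 were highest in mutant 1. Of the EGF-like ligands that carry the ovulatory signal, *Btc* had 360 and 5 counts in mutants 1 and 2 and 0 in both controls, and *Areg* had 29 counts in mutant 1 and 0 in the other 3 libraries. *Ereg* had no count in any library. All 3 lie within one stretch of chromosome 5, between 91074622 and 91402994 (mm10). In mutant 1 *Btc* was thus at 12.8 CPM (95% counting interval 11.5 to 14.2) and *Areg* at 1.03 CPM (0.690 to 1.48). *Ptgs2*, the prostaglandin synthase induced by these ligands, had 362 and 1 counts in the mutants, against 58 and 3 counts in the controls.

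The matrix genes *Ptx3*, *Tnfaip6* and *Vcan* had most of their counts in mutant 1. *Ptx3*, the pentraxin that cross-links the matrix, had 1485 and 0 counts in mutants 1 and 2, against 44 and 0 counts in controls 1 and 2. *Tnfaip6*, which transfers heavy chains onto hyaluronan, had 859 and 34 counts in the mutants, against 33 and 0 counts in the controls. *Vcan*, the proteoglycan versican, had 938 and 12 counts in the mutants, against 68 and 3 counts in the controls. Each was more than 12 times as high in mutant 1 as in control 1, with ratios of 29.8 for *Ptx3* (95% counting interval 22.1 to 41.1), 23.0 for *Tnfaip6* (16.2 to 33.6) and 12.2 for *Vcan* (9.50 to 15.8). *Ptx3* lies inside *Veph1* on the opposite strand, and since the use of strand in counting is not stated, reads of the pair cannot be told apart.

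*Has2*, the synthase that makes hyaluronan, departed from its matrix partners. It had 173 and 49 counts in mutants 1 and 2, against 1 and 20 counts in controls 1 and 2, so that control 1, which held reads of *Ptx3* and *Tnfaip6*, had nearly none of *Has2*, while control 2 had more. Both mutants lay above both controls (log2 fold change 3.24, SE 1.14; edgeR adjusted p = 0.158), and the difference passed with the DESeq2 Wald test (adjusted p = 0.0429). *Has2* overlaps the antisense gene *Has2os*. *Grem1*, a BMP antagonist that oocytes induce in cumulus cells, had 510 and 0 counts in the mutants, against 184 and 0 counts in the controls. Its ratio of mutant 1 to control 1 was 2.44 (95% counting interval 2.06 to 2.91), below those of the 3 matrix genes.

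*Sdc4*, a cell surface proteoglycan, was at 31.5 and 2.07 CPM in mutants 1 and 2 and at 2.50 and 0.556 CPM in controls 1 and 2. *Runx2*, a transcription factor induced at ovulation, stood at 12.3 and 3.16 CPM in the mutants, against 2.58 and 4.17 CPM in the controls. It overlaps *Supt3* and several antisense genes, and its RSEM counts summed to 70.2% of its matrix counts, where the median over the 33 members with a count was 93.6%. *Tnfaip6* and *Ptx3* were also low in this respect, at 70.8% and 77.9%. *Cd44*, the hyaluronan receptor, had 4 and 55 counts in mutants 1 and 2, against 8 and 3 counts in controls 1 and 2, so mutant 2 alone was high. *Pgr*, the progesterone receptor that the ovulatory surge induces in granulosa cells, had 3 counts in mutant 2 and 0 elsewhere.

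Hormone receptors and granulosa identity genes were near the limit of detection, apart from *Bmpr1b*. *Fshr*, the follicle-stimulating hormone receptor, had 10 and 3 counts in mutants 1 and 2, against 0 and 5 counts in controls 1 and 2, and *Lhcgr*, the luteinizing hormone receptor, had 1 count in control 2 and 0 elsewhere. *Amh*, the hormone of growing follicles, and its receptor gene *Amhr2* had 13 and 11 counts in mutant 1 and 0 in the other 3 libraries. *Foxl2*, a transcription factor that defines granulosa cells, had 1 count in mutant 1 and 0 elsewhere. Of these 5 genes, 3 were thus read in mutant 1 and in no other library, and each was below 0.5 CPM there. *Bmpr1b*, a BMP type I receptor, was at 295 and 313 CPM in mutants 1 and 2 and at 326 and 289 CPM in controls 1 and 2, with overlapping groups (log2 fold change -0.02, SE 0.144; edgeR adjusted p = 0.963).

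Set against each other by role, 3 of the 5 groups were highest by far in mutant 1. The inhibin and activin genes summed to 127 and 3.38 CPM in mutants 1 and 2, against 11.0 and 0.198 CPM in controls 1 and 2. The cumulus expansion group summed to 211 and 11.2 CPM in the mutants, against 21.0 and 5.87 CPM in the controls. The steroid group summed to 121 and 33.2 CPM in the mutants, against 52.9 and 55.5 CPM in the controls, of which *Cyp19a1* alone gave 34.2 and 42.5 CPM in the controls. Mutant 2 lay below control 1 in all 3 of these groups. The receptor group, nearly all *Bmpr1b*, summed to 296 and 313 CPM in the mutants and 326 and 289 CPM in the controls, and the coupling group, nearly all *Serpine2*, to 1716 and 1585 CPM in the mutants and 1281 and 1080.4 CPM in the controls.

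In two-sided exact permutation tests of these sums, which with 2 libraries a group cannot go below p = 0.333, the inhibin and expansion groups each gave p = 0.667, the steroid and receptor groups p = 1, and the coupling group p = 0.333. Without mutant 1, the difference in means between mutants and controls turned negative for the inhibin (-2.20 CPM), expansion (-2.25 CPM) and steroid (-21.0 CPM) groups.

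**Figure D2:**
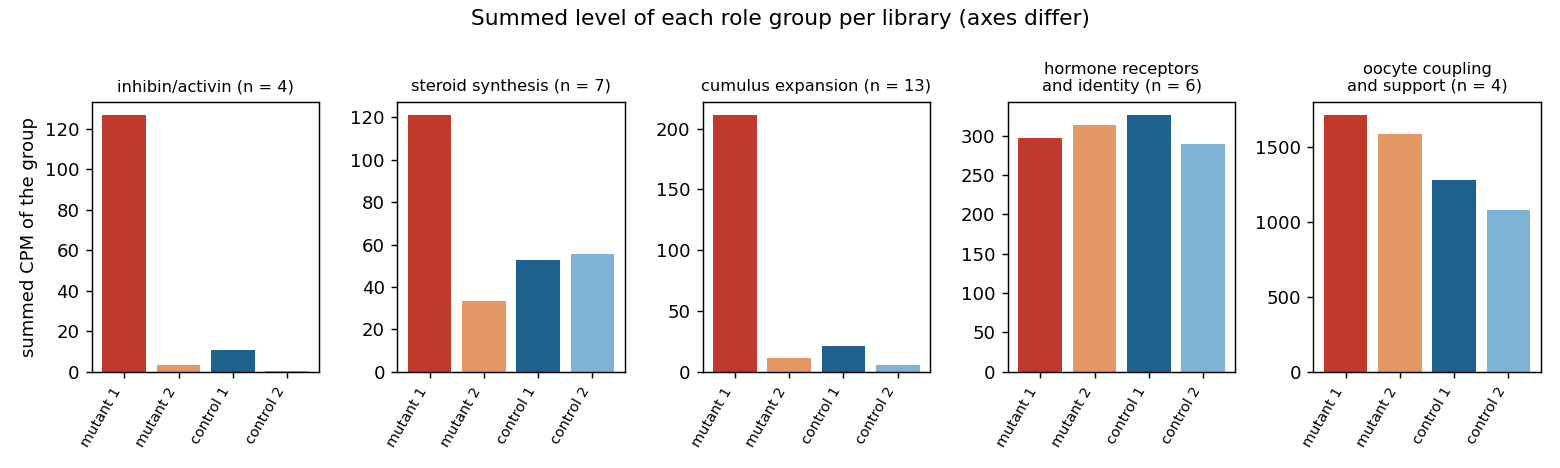
Bars give the summed CPM of each role group in each library, from 0, with a separate axis for each group and the number of genes in brackets. Mutant 1 exceeds the other 3 libraries in the inhibin, steroid and expansion groups (127, 121 and 211 CPM), while the receptor group lies between 289 and 326 CPM and the coupling group between 1080.4 and 1716 CPM.

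The level in the other libraries relative to mutant 1 varied widely between members. Over the 18 members that were highest in mutant 1 and had at least 100 counts there, control 1 stood at a median of 8.07% of the mutant 1 level, with a range of 0% to 81.0%. Mutant 2 stood at a median of 2.76% and control 2 at 0.293%. Control 1 was under 10% of mutant 1 for 11 of these 18, and mutant 2 and control 2 for 14 each. Among the exceptions, *Grem1* in control 1 was at 40.9% and *Ptgs2* at 18.2%, *Has2* in mutant 2 was at 30.0%, and *Nr5a2* and *Serpine2* were above 50% in all 3 libraries. Of the 28 members highest in mutant 1, the next highest library was control 1 for 15, mutant 2 for 3 and control 2 for 3, and 7 had 0 counts in all 3 others.

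**Figure D3:**
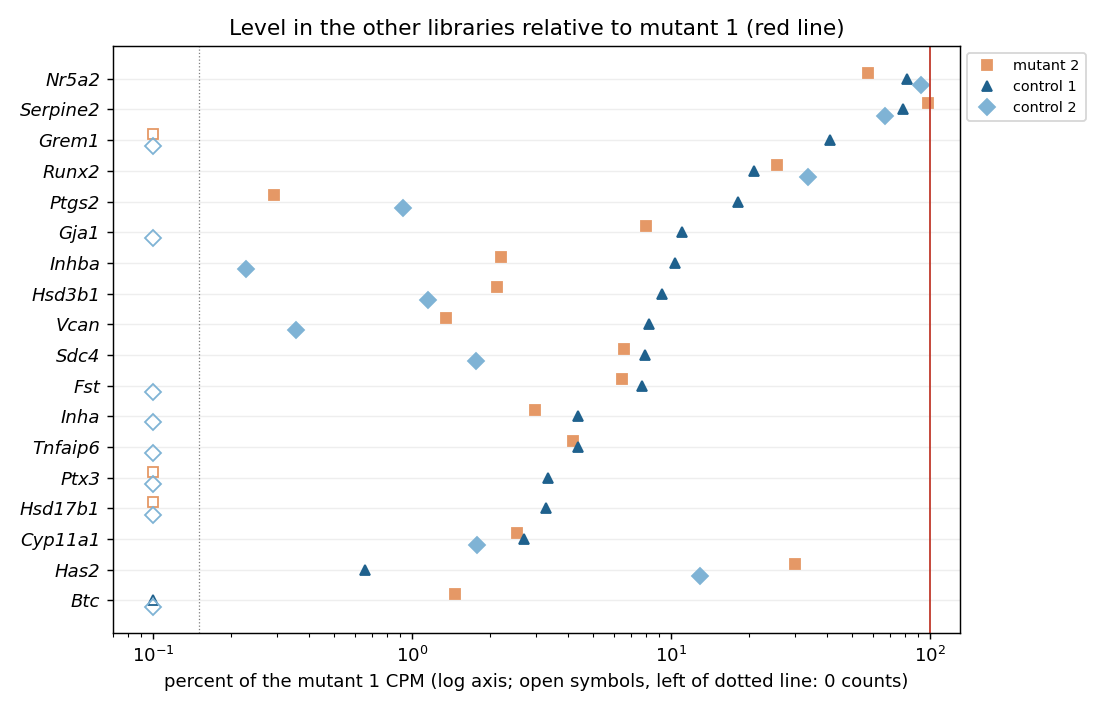
CPM in mutant 2, control 1 and control 2 as a percentage of that in mutant 1 (log axis) for the 18 members highest in mutant 1 with at least 100 counts there; open symbols mark 0 counts. Control 1 (triangles) lies above mutant 2 for most genes, with a median of 8.07%. *Nr5a2* lies between 57.3% and 92.4% of the mutant 1 level and *Serpine2* between 66.9% and 97.7%.

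Per length, the order of the members in mutant 1 was led by *Serpine2* at 1543 TPM and *Bmpr1b* at 92.2 TPM, both of which were as high in the other mutant. Next came *Hsd3b1* at 80.1, *Gja1* at 53.9, *Ptx3* at 42.7, *Inha* at 37.5, *Tnfaip6* at 25.8, *Sdc4* at 23.6 and *Inhba* at 22.9 TPM. The steroid enzymes *Hsd17b1* and *Cyp11a1* were at 15.4 and 7.33 TPM, and the ligand genes *Btc* and *Areg* at 7.53 and 1.89 TPM. These are levels of single libraries with no replicate.

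Between the genotypes no member passed the test. Of the 18 members tested, 0 rose and 0 fell (edgeR quasi-likelihood test, p under 0.05 after Benjamini-Hochberg adjustment over 15493 genes), where 1.77% of all tested genes were called higher and 1.98% lower in the mutants. At an unadjusted p under 0.05 there were 5 higher and 1 lower, against 12.5% and 10.4% of all tested genes. The DESeq2 Wald test, which gave 26 members an adjusted p, called 2 higher (*Has2*, *Cyp11a1*) and 1 lower (*Cyp19a1*), against 5.52% and 5.12% of 17722 genes. With the replicate number as a block, a number not known to pair these libraries, edgeR called 9 higher and 1 lower, against 4.71% and 3.12% of all tested genes. The other 16 members were left out by the filter on low counts, and none of them had 10 counts or more in 2 libraries. Of these 16, *Btc*, *Hsd17b1* and *Cyp11a1* had more counts in all than the tested *Star*, with nearly all of theirs in mutant 1. The groups did not overlap for 2 tested members that were higher in the mutants, *Has2* and *Serpine2*, against 28.8% of all tested genes, and for 1 that was lower, *Cyp19a1*, against 25.7%. The median log2 fold change was 3.26 over the tested members, 15 positive and 3 negative, and 0.05 over all tested genes. *Ptgs2*, *Ptx3* and *Grem1* reached 10 counts in 2 libraries only when mutant 1 was one of them. The list was drawn up with earlier results of these data known, and 16 of the 18 tested members were highest in mutant 1. The median therefore only describes these members.

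The number called depended on single libraries. Without mutant 2, which leaves mutant 1 as the only mutant, 12 of 26 tested members were called higher and 0 lower in edgeR, against 3.85% and 2.17% of 17029 genes. Without mutant 1, *Cd44* was called higher and *Grem1* lower of 19 tested, against 5.79% and 4.37% of 16620 genes, and *Inhba*, *Hsd3b1*, *Ptgs2*, *Ptx3*, *Vcan*, *Star*, *Runx2* and *Grem1* turned to negative log2 fold changes. Those of *Inha* (0.42), *Gja1* (0.51), *Tnfaip6* (0.91), *Fst* (0.70) and *Sdc4* (0.41) stayed positive but lay below 1. In these fits the lone mutant is assumed to vary like the controls. Of the members called without mutant 2, *Inhbb*, *Btc*, *Hsd17b1* and *Cyp11a1* were not among the 18 tested with all libraries. They had 74, 360, 277 and 251 counts in mutant 1 and 8 or fewer in each control. Because the list was drawn up with earlier results of these data known, the share called without mutant 2 describes mutant 1 and carries no test.

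Of 24 other genes of the same pathways, in a list separate from the members, 19 were tested, of which 0 rose and 1 fell. This was *Kitl*, the ligand of the oocyte receptor KIT, at 17.8 and 15.3 CPM in mutants 1 and 2, against 38.6 and 32.4 CPM in controls 1 and 2 (log2 fold change -1.10, SE 0.212; edgeR adjusted p = 0.0468). Which cells gave the *Kitl* reads was not tested. The most abundant of the list, *Rgs2* and the estrogen receptor gene *Esr2*, did not pass (log2 fold changes -0.21 and -0.31, edgeR adjusted p = 0.481 and 0.285). *Esr2*, like *Cyp19a1*, was read in control 2, at 140.05 CPM, although *Gja1* was not.

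By rule, the genes outside the list with the highest CPM in mutant 1 and under 10% of it in each other library were named. They were *Rgcc*, a cell cycle regulator, *Mrap*, an accessory protein of melanocortin receptors, *Thbs1*, thrombospondin 1, *Procr*, the protein C receptor, *Cd63*, a tetraspanin, and *Gcsh*, of the glycine cleavage system. *Rgcc* was at 78.7 and 0.301 CPM in mutants 1 and 2 and at 4.75 and 0.754 CPM in controls 1 and 2, and *Mrap* at 76.3 and 3.38 CPM in the mutants, against 7.05 and 5.40 CPM in the controls. *Thbs1* had 1272 and 57 counts in the mutants and 3 and 0 counts in the controls. The other 3 were between 39.7 and 42.2 CPM in mutant 1. These genes were chosen by their values, which are a description.

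Markers of other cell types differed in which library was highest. A list of 8 leukocyte genes summed to 11.2 and 146 CPM in mutants 1 and 2, against 4.03 and 5.24 CPM in controls 1 and 2. Its most abundant genes, *Coro1a* and *Ptprc*, were at 64.3 and 43.2 CPM in mutant 2 and at 0 in both controls, and in mutant 1 they had 0 and 3 counts. *Cd44*, which leukocytes express too, was also highest in mutant 2, and the part of such cells in its level was not tested. Of these 8 genes 3 were at 0 in mutant 1 and none in mutant 2, against 5 in control 1 and 6 in control 2. Of the 2 that were tested 1 rose, the lysozyme gene *Lyz2*, at 8.03 and 3.83 CPM in the mutants, against 0.362 and 0.0397 CPM in the controls (log2 fold change 4.85, SE 0.900; edgeR adjusted p = 0.0437).

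The theca list held genes of unlike patterns. The 6 theca genes summed to 7.07 and 3.94 CPM in mutants 1 and 2 and to 7.41 and 4.09 CPM in controls 1 and 2, while *Cyp17a1*, the androgen enzyme that defines theca cells, was at 0 in all 4 libraries. Of its most abundant genes, *Nr2f2* was highest in mutant 1, at 4.97 and 0.714 CPM in the mutants, against 1.57 and 1.11 CPM in the controls. *Fbln5* was lowest there, at 0.497 and 2.22 CPM in the mutants, against 4.83 and 2.02 CPM in the controls. *Ptch1*, named after its values were seen, was like *Nr2f2* highest in mutant 1, at 1.31 and 0.451 CPM in the mutants and 0.362 and 0.198 CPM in the controls, and the part of theca cells in the members' level was not tested. The 6 endothelial genes summed to 41.4 and 46.5 CPM in the mutants and 33.2 and 46.0 CPM in the controls, led by *Pecam1* and *Tek*, but *Cdh5*, named after its values were seen, had 61 counts in mutant 1 and 0 elsewhere. The 6 epithelial genes summed to 24.8 and 4.17 CPM in the mutants, against 1.73 and 1.94 CPM in the controls, led by the oviduct gene *Ovgp1* at 15.7 CPM in mutant 1, with *Epcam* at 2.56 and 2.55 CPM in the mutants and 0.604 and 1.27 CPM in the controls. The epithelial list was thus highest in mutant 1, like most members. In the sum the next highest library was mutant 2, as it was for *Ovgp1* and *Epcam*. For *Krt8*, *Krt18* and *Upk1b*, named after their values were seen, mutant 1 was highest and control 1 next. *Krt8* had 103 and 2 counts in mutants 1 and 2, against 10 and 0 in controls 1 and 2. *Krt18* had 75 and 0, against 5 and 0, and *Upk1b* 4 and 0, against 2 and 0. Among the 28 members highest in mutant 1, control 1 came next for 15. The part of epithelial cells in the members' level was not tested. The 6 stroma genes summed to between 6.25 and 6.81 CPM in all 4 libraries, but from different genes. *Dcn* was at 6.11 and 1.80 CPM in mutants 1 and 2 and at 6.60 and 5.99 CPM in controls 1 and 2, whereas *Col1a1* had 1 and 56 counts in the mutants, against 2 and 0 counts in the controls. *Col1a2* and *Col3a1*, named after their values were seen, had 22 and 43 counts in mutant 2 and 2 or fewer in each other library. The sums of the 4 erythroid genes, led by *Alas2* and *Hba-a1*, lay between 0.397 and 2.13 CPM, from different genes. *Alas2* had 49 and 14 counts in mutants 1 and 2, against 5 and 10 counts in controls 1 and 2. *Hba-a1* had 1 and 0 counts in the mutants, against 28 and 0 counts in the controls. *Hbb-bs*, named after its values were seen, had 20 counts in control 1 and 0 elsewhere.

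**Figure D4:**
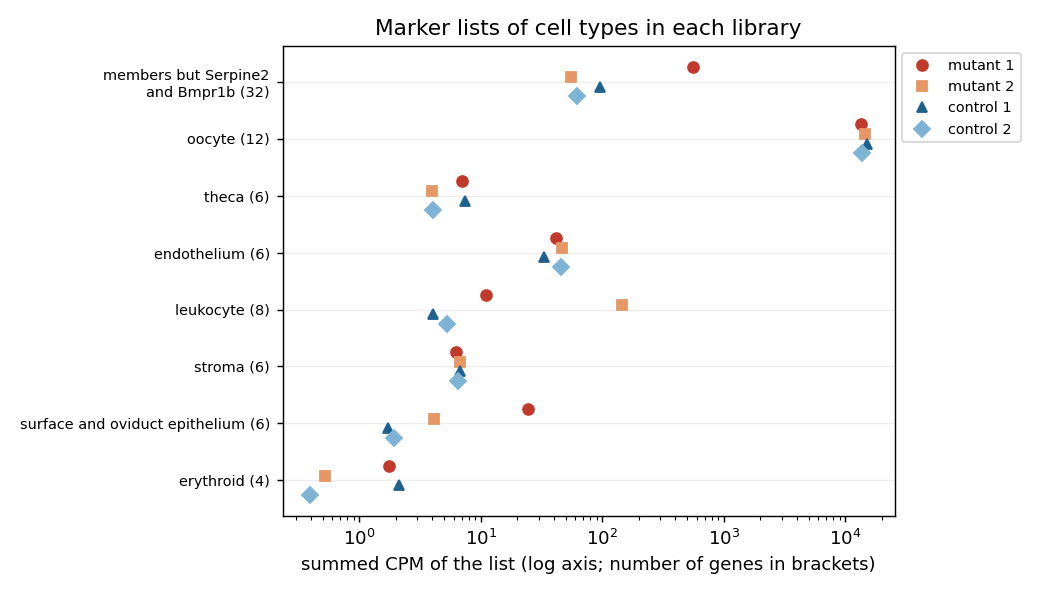
Summed CPM (log axis) of each list of cell type markers in each library, with the number of genes in brackets. The members, shown without *Serpine2* and *Bmpr1b*, reach 561 CPM in mutant 1, the leukocyte list reaches 146 CPM in mutant 2, and the oocyte list lies close together in all 4 libraries.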

How the data were processed

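RNA of 2 mutant and 2 control oocyte libraries was sequenced after Smart-Seq2 amplification, per the labels' protocols. The deposited count matrix of the series holds whole numbers per gene with no normalization. Each library also has a table that the authors deposited with expected counts, TPM and transcript lengths in the form of RSEM gene results, per the file headers. The submitters' processing notes name cutadapt 1.16, STAR, RSEM and mm10, and do not give the counter behind the matrix or its use of strand.

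Counts were scaled by TMM over the genes that passed filterByExpr, and CPM values are on those library sizes. Genotypes were compared with edgeR 4.0.16 in R 4.3.3 (quasi-likelihood test, genotype as the only term, Benjamini-Hochberg adjustment over 15493 tested genes, threshold 0.05), tested on simulated data. The SE is the log2 fold change divided by the square root of F. DESeq2 1.42.0, other scalings, no filter, RSEM expected counts rounded to whole numbers, a replicate block and each library left out were the alternatives. Coordinates are from GENCODE M21, which matched 55154 of 55335 gene IDs. Counting intervals are exact (Poisson for a level, Clopper-Pearson for a ratio) at 95%, and a count of 0 has a limit of 3 counts per library. The members and lists were chosen with earlier results of these data known. All members were named, with *Kitl* as the other pathway gene past the threshold, the 2 most abundant genes of each other list, and the 6 genes most like mutant 1. Promoter motifs were searched by exact match.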

Additional observations from a re-analysis of the deposited data

How the results depend on the processing

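Members highest in mutant 1 numbered 28 with CPM on the library total, 29 with RSEM expected counts and 28 with the deposited TPM. Against 0 members called in each direction, edgeR with no filter called 1 higher (*Btc*) and 1 lower (2.84% and 2.17% of all genes tested in that fit), DESeq2 2 and 1 (5.52% and 5.12%), and the replicate block 9 and 1 (4.71% and 3.12%). With a library left out the counts lay between 0 and 12 for higher (0.0572% to 5.79% of all genes) and between 0 and 1 for lower (0.0686% to 4.37%). Leaving out a library changes which members are tested, and the list was chosen with earlier results known, so these counts are a description. The labels share only a replicate number. The deviations of same-numbered libraries correlated at 0.176, which with 2 pairs does not show whether they are paired. With another library scaling or the RSEM expected counts no member was called. With a library left out, log2 fold changes of members that changed sign ranged as follows: *Inhba* -1.29 to 7.76, *Star* -0.51 to 1.21, *Hsd3b1* -1.31 to 5.45, *Ptgs2* -4.89 to 5.69, *Ptx3* -7.53 to 12.45, *Vcan* -1.68 to 7.08, *Grem1* -9.59 to 10.91, *Runx2* -0.11 to 1.86, *Nr5a2* -0.61 to 0.20, and *Bmpr1b* -0.15 to 0.066. *Bmpr1b* was also at 0.077 with no scaling beyond the library total.

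The difference in summed CPM between mutants and controls, with a library left out, lay between -2.20 and 121 for the inhibin group, -21.0 and 67.1 for the steroid group, -2.25 and 198 for the expansion group, and -21.7 and 16.0 for the receptor group, whose sign was uncertain: it was -2.86 as reported, 16.5 on the library total, 17.7 with RSEM expected counts and 10.9 in TPM. The coupling group stayed positive in all of these. With 2 libraries a group, and most receptor and identity genes at 13 counts or fewer, neither a change between genotypes nor the absence of these transcripts from a library could be shown.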
